A study of Homo sapiens with 16 samples.

Results

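Oxidative phosphorylation genes were read across the vitamin D time course as those U133A genes whose symbol begins with NDUFA, NDUFB, NDUFC, NDUFS, NDUFV, UQCR, COX4, COX5, COX6, COX7, COX8 or ATP5, or is SDHA, SDHB, SDHC, SDHD or CYC1. Assembly factors named NDUFAF were left out, and each gene was represented by the probe set with the highest mean log2 signal. The rule found 69 genes among 11963 genes with a probe set of their own, and 66 of them were among the 7178 genes above a filter on low signal. By complex, 28 of 29 genes of complex I were above the filter, as were 3 of 3 of complex II, 7 of 7 of complex III, 12 of 13 of complex IV and 16 of 17 of complex V. The 3 left out were COX7A1, the muscle form of a complex IV subunit, the pseudogene ATP5MC2P1 and the antisense RNA NDUFB2-AS1. SDHB and UQCRFS1 were not analysed here.

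Oxidative phosphorylation is carried out in the inner mitochondrial membrane. Complex I takes electrons from NADH and complex II from succinate, complex III passes them from ubiquinol to cytochrome c, complex IV reduces oxygen, and complex V, the ATP synthase, uses the resulting proton gradient to make ATP. All genes described here are nuclear, and many of them are known targets of the transcription factors NRF1 and GABP.

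The cells were OVCAR3, an established human ovarian carcinoma line, so the model is 1 cell line in culture. The 4 groups were vehicle (ethanol) and 8, 24 and 72 h of 1,25(OH)2D3, the hormonally active form of vitamin D3, at the 0.1 pM that the labels state. Hormone was added at staggered times so that all cells were collected together after the same exposure to ethanol. Each group had 3 U133A arrays from independent experiments, and 4 further U95 arrays gave 1 array a time, so 12 U133A arrays carry every test below. The dose as labelled could not be checked from the arrays.

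Signals were scaled by MAS5, the array maker's summary method, and the 2% trimmed mean of every U133A array was 500.2. Arrays correlated at 0.958 to 0.976 over all probe sets on the log2 scale. GADD45A, the gene that the study used to check the response, was 2.81-fold higher at 8 h and 4.06-fold higher at 72 h than in vehicle (limma, Benjamini-Hochberg adjusted p = 3.48e-05 and 3.18e-07). CYP24A1, the vitamin D 24-hydroxylase, was 59.4-fold higher at 72 h. All 8 epithelial and ovarian carcinoma markers examined were above the filter, whereas 0 of 5 leukocyte, 0 of 5 endothelial and 3 of 7 fibroblast markers were. Over the 3 comparisons with vehicle there were 6 calls among the 8 (limma adjusted p under 0.05) and 0 among the 3 fibroblast markers. Of all tested genes, 0.766%, 4.07% and 6.84% were called at 8, 24 and 72 h. Signals of different probe sets are not on a common scale, so levels were compared between groups and never between genes. In bulk RNA, fewer cells of a kind and less RNA per cell cannot be told apart.

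Promoter sequences of 58 of the 67 protein-coding genes were available from RefSeq (GRCh38.p14), as windows of 250 bases before to 50 bases after the start. The letters GCANGCGC, the NRF1 consensus used here, were present on either strand in 20 of the 58 (34.5%), against 12.2% of all 27305 promoters. No limit to protein-coding or to tested genes was set for the 27305, so here and below the 58 are set beside an unlike background. CCGGAAG, for GABP, was present in 29.3% of the 58 and 10.7% of all promoters, and AAGATGGC, for YY1, in 17.2% and 3.03%. The vitamin D receptor half-sites AGGTCA and GGTTCA were present in 25.9% and 12.1% of the 58, against 13.9% and 8.62% of all promoters. A direct repeat of either half-site with a spacer of 3 bases was found in 0 of the 58 windows, against 0.00732% of all promoters for each. A match is a description of the letters in the window, not a binding site. NDUFB5 passed the test below but had no promoter sequence available. The 250 bases upstream of the start are shown for SDHA and NDUFS7, which also passed, and for SDHD, which had the lowest log2 change at 72 h. They lie at chr5:218070-218319, chr19:1383657-1383906 and chr11:112086623-112086872, all on the plus strand, with matches to GCANGCGC and CCGGAAG in capitals.
SDHA: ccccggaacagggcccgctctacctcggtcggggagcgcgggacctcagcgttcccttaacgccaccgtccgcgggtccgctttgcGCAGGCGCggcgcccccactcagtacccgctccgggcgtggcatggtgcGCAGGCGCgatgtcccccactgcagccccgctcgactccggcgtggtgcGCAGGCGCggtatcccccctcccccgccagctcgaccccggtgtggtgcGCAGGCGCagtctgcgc
NDUFS7: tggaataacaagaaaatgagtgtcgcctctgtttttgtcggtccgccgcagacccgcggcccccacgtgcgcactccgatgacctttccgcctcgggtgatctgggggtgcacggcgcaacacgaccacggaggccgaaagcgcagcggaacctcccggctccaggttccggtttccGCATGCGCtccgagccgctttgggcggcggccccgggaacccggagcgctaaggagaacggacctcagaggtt
SDHD: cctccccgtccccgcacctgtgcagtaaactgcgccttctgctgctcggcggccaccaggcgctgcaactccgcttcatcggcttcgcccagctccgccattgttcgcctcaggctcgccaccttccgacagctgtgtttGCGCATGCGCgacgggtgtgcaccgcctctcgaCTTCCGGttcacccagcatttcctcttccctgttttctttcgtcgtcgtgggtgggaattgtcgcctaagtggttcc
SDHA held 4 matches to GCANGCGC, with first bases at -164, -115, -66 and -17 from the start. They are evenly spaced with similar letters around them, so they are not 4 independent matches. SDHD held 2 overlapping matches on opposite strands (-110 and -108) and 1 CCGGAAG on the minus strand at -77, overlapping a GGTTCA at -72. NDUFS7 held 1 match to GCANGCGC, at -73, and an AGGTCA on the minus strand at -171, which is not in capitals. Past the bases shown, NDUFS7 held AAGATGGC at 18 and SDHD held AGGTCA on the minus strand at 12. Among tested genes with a promoter, the median log2 change at 72 h was 0.06 with 12 of 20 above 0 where GCANGCGC was present, and 0.08 with 26 of 38 above 0 where it was not.

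At 8 h the oxidative phosphorylation genes were close to their vehicle level. Log2 changes ran from -0.28 to 0.29 with a median of 0.03, and 97.0% of the 66 genes lay within 0.2 of zero on either side, against 89.2% of the 669 tested genes of like signal (2334 to 7875, the middle range of the members' mean signals) and 78.8% of all tested genes. None of the 66 passed the test (limma, Benjamini-Hochberg adjusted p under 0.05), where 0.766% of all tested genes did. At an unadjusted p under 0.05 there was 1 gene, NDUFS7, which is 1.52% of the 66 against a background of 6.38%. The 3 treated arrays lay wholly above the vehicle arrays for ATP5F1A and NDUFA7, where 6.51% of all tested genes did, and wholly below them for ATP5IF1, NDUFA9 and NDUFS7, where 6.95% did.

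At 24 h, 1 of the 66 genes passed the test, NDUFS7, and it was lower. The shares over all tested genes were 4.07% in either direction, 1.62% lower and 2.45% higher. At an unadjusted p under 0.05 there were 5 genes, 7.58% of the 66 against 14.4% of all tested genes. The median log2 change was 0.06, and 49 of 66 genes (74.2%) were above 0, against 57.5% of genes of like signal and 46.7% of all tested genes. Without vehicle replicate 1 the median was 0.006, and 34 of 66 genes were above 0. Treated arrays lay wholly above vehicle for ATP5F1A, COX6A1, COX7A2L, CYC1, NDUFA13 and SDHA (background 9.32%) and wholly below for ATP5IF1 and NDUFS7 (background 11.2%).

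At 72 h, NDUFB5 and SDHA rose and 0 genes fell, so that 2 of 66 passed, where 6.84% of all tested genes passed in either direction, 3.86% higher and 2.98% lower. At an unadjusted p under 0.05 there were 8 higher and 3 lower genes, 16.7% of the 66 against 20.1% of all tested genes. Log2 changes ran from -0.40 to 0.54 with a median of 0.07, and 42 genes (63.6%) were above 0, against 57.2% of genes of like signal and 47.6% of all tested genes. Without vehicle replicate 1 the median was 0.017, and 38 of 66 genes were above 0. Treated arrays lay wholly above vehicle for 11 genes (COX6A1, COX7A2, NDUFA2, NDUFA8, NDUFB2, NDUFB5, NDUFB8, NDUFS6, SDHA, UQCR10 and UQCRC1) and wholly below for COX7A2L, NDUFS1 and NDUFS7, against backgrounds of 11.7% and 12.7%. These comparisons share the vehicle arrays. The share within 0.2 of zero was 74.2% of the 66, 70.0% of the genes of like signal and 61.6% of all tested genes.

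**Figure D1:**
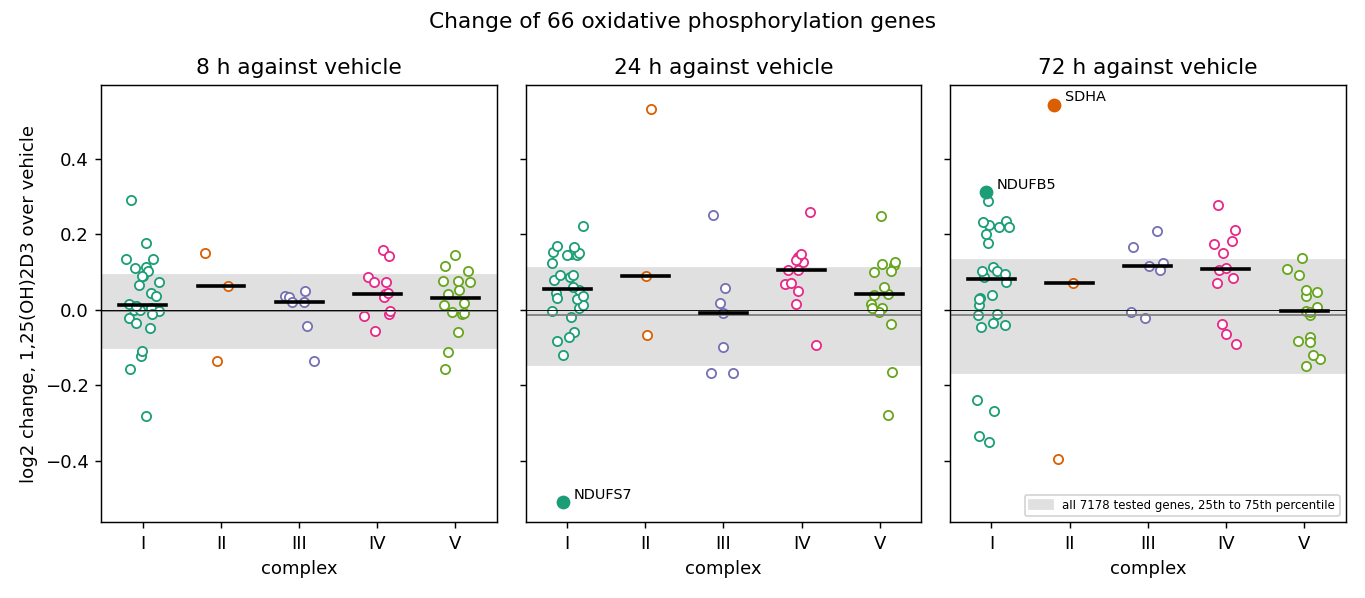
Log2 change (vertical axis) of each of the 66 tested oxidative phosphorylation genes at 8, 24 and 72 h over vehicle, by complex (horizontal axis). Filled points passed the test, black bars are medians, the thin grey line is the median and the grey band the 25th to 75th percentile of all 7178 tested genes; NDUFS7 at -0.51 is the filled point at 24 h, and SDHA at 0.54 and NDUFB5 at 0.31 are the filled points at 72 h.

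NDUFS7, the core subunit of complex I that holds the last iron-sulfur cluster before ubiquinone, was the member with the lowest p at 8 and 24 h. Its signals were 725, 773 and 750 in vehicle, 674, 606 and 565 at 8 h, 505, 553 and 506 at 24 h, and 619, 565 and 591 at 72 h. Every hormone-treated array was below every vehicle array, and the lowest values were those of 24 h. The log2 change was -0.28 at 8 h (adjusted p = 0.472), -0.51 ± 0.106 (SE, n = 3 a group) at 24 h (limma adjusted p = 0.00937) and -0.33 at 72 h (adjusted p = 0.0758). Over the mean of the treated groups the gene fell by 0.38 on the log2 scale (limma adjusted p = 0.0175), the only member past the threshold in that comparison, where 4.51% of all tested genes passed. It was also the only member past the F test over the 4 groups (limma adjusted p = 0.04), where 5.21% of all tested genes passed. In the 24 h comparison NDUFS7 stayed past the threshold under all 22 alternative settings, with log2 changes from -0.55 to -0.48. The mean-of-treated result was lost without vehicle replicate 1, 2 or 3, and the F test was lost under 9 of the 22.

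None of the other core subunits of complex I passed the test at any time. The shares over all tested genes were 0.766%, 4.07% and 6.84% at 8, 24 and 72 h. NDUFS1, which carries iron-sulfur clusters of the NADH-oxidising arm, had signals of 932, 1097 and 1116 in vehicle, 1089, 1094 and 950 at 8 h, 932, 1093 and 960 at 24 h, and 780, 917 and 761 at 72 h. Only the 72 h arrays lay wholly below vehicle, and the log2 change there was -0.35 ± 0.114 (SE; limma adjusted p = 0.0851), so the test was not passed. It was passed with the replicate number as a block (adjusted p = 0.043) and without 72 h replicate 2, where the change was -0.43 (adjusted p = 0.0492). NDUFV1, which binds NADH and the flavin, had 2939, 2257 and 2211 at 72 h against 2440, 2394 and 2704 in vehicle, and these ranges overlapped (log2 change -0.04, adjusted p = 0.91). At 72 h, 1 of the 5 core genes measured (NDUFV1, NDUFV2, NDUFS1, NDUFS3 and NDUFS7) had a log2 change above 0, with a median of -0.04.

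Among the 23 accessory genes of complex I, which hold no redox centre, 18 had a log2 change above 0 at 72 h, with a median of 0.09. That is 78.3%, against 57.2% of genes of like signal. Relative to each gene's mean over the 12 arrays, the median complex I gene was at -0.12 on vehicle replicate 1 and 0.20 on 72 h replicate 1. NDUFB5, an accessory subunit of the membrane arm, had signals of 3390, 3849 and 3384 in vehicle, 3943, 3932 and 3592 at 8 h, 3968, 3974 and 3785 at 24 h, and 4605, 4291 and 4274 at 72 h. The 72 h arrays were the highest 3 of the 12. The log2 change was 0.11 at 8 h (adjusted p = 0.99), 0.14 at 24 h (adjusted p = 0.464) and 0.31 ± 0.0812 (SE) at 72 h, a 1.24-fold rise (limma adjusted p = 0.0295). That call was lost under 6 of 22 alternatives, among them the fits without vehicle replicate 1 or 3 or without 72 h replicate 1 or 2, where the adjusted p reached 0.13.

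NDUFA2, an accessory subunit near the NADH end, had 3758, 3528 and 3572 at 72 h against 2718, 3253 and 2935 in vehicle. All 3 treated arrays were above all 3 vehicle arrays, with a log2 change of 0.29 (limma adjusted p = 0.0774), and at 8 h it was 0.18 (adjusted p = 0.856). NDUFA9, an accessory subunit close to the ubiquinone site, had 2021, 1949 and 1909 at 8 h against 2116, 2238 and 2213 in vehicle, which did not overlap (log2 change -0.16, adjusted p = 0.912). Of the genes named NDUFB, 8 of 9 had a log2 change above 0 at 72 h, with a median of 0.10, against 57.2% of genes of like signal. Of those whose symbol starts with NDUFA, which takes in NDUFAB1 (0.20), 7 of 11 did, from -0.27 for NDUFA1 to the value of NDUFA2.

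In complex II, SDHA was higher at 72 h and the other measured subunits did not pass. SDHA, the flavoprotein that oxidises succinate, had signals of 573, 674 and 538 in vehicle, 564, 655 and 773 at 8 h, 982, 701 and 935 at 24 h, and 862, 856 and 894 at 72 h. All arrays of 24 and 72 h were above all vehicle arrays, while 8 h overlapped with vehicle. The log2 change was 0.15 at 8 h (adjusted p = 0.999), 0.53 ± 0.143 (SE) at 24 h, just over the threshold (limma adjusted p = 0.05003), and 0.54 ± 0.143 at 72 h, a 1.46-fold rise (limma adjusted p = 0.031). The 24 h value passed under 10 of 22 alternatives and the 72 h value under 15 of 22, and the 72 h call was lost without vehicle replicate 1 or 3 and without each of the 72 h arrays, with adjusted p up to 0.131. The probe set is of the kind the maker marks as able to hybridise to several sequences, and SDHA has transcribed pseudogenes, so its signal may hold their transcripts.

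SDHD, a membrane anchor of complex II, had signals of 1604, 1649 and 1462 in vehicle, 1298, 1561 and 1430 at 8 h, 1373, 1686 and 1452 at 24 h, and 1138, 1487 and 994 at 72 h. Replicate 2 at 72 h lay within the vehicle range and the other two below it. The log2 change at 72 h was -0.40 ± 0.134 (SE; limma adjusted p = 0.0976), the lowest of the 66, and the test was not passed, except in the fit without 72 h replicate 2, where the change was -0.56 (adjusted p = 0.0135), and with the replicate number as a block (adjusted p = 0.026). SDHC, the other anchor, had 2676, 2419 and 2479 at 72 h against 2280, 2463 and 2462 in vehicle, which overlapped.

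**Figure D2:**
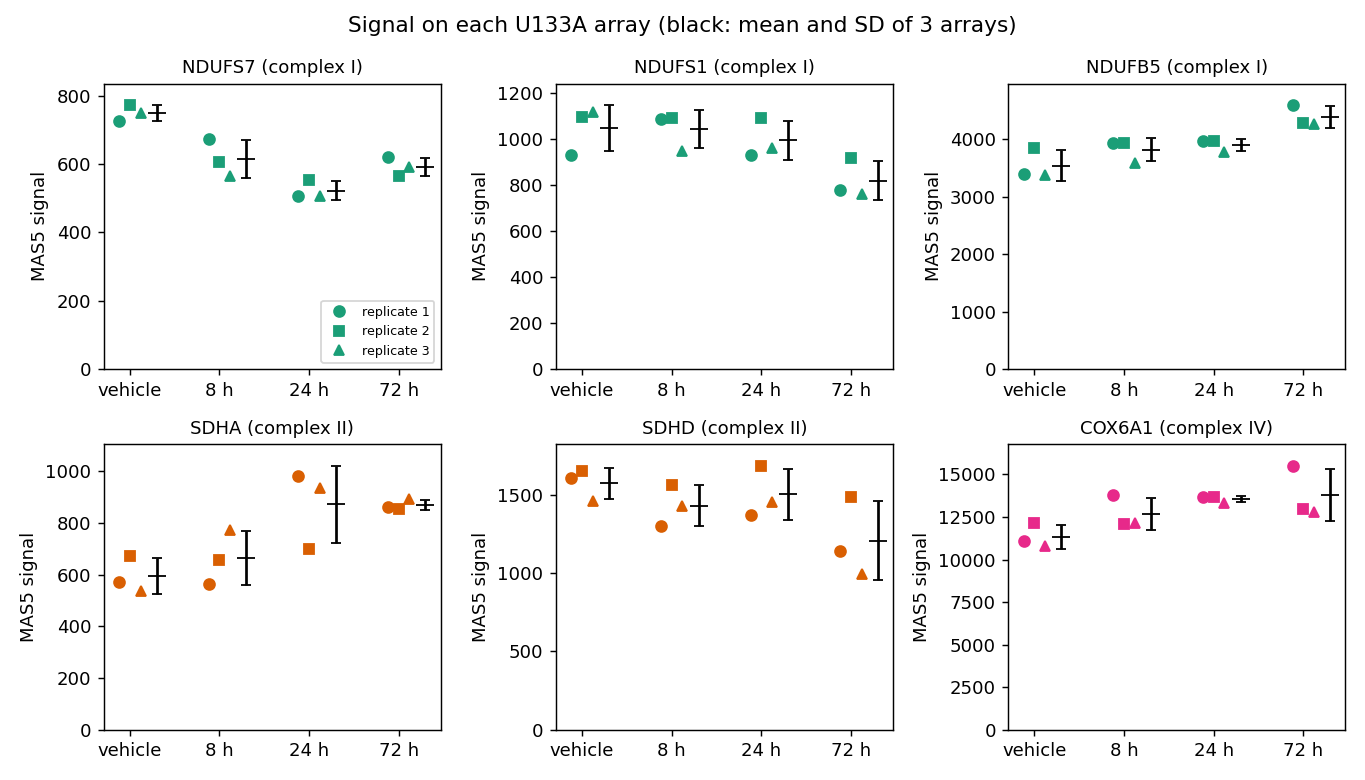
MAS5 signal (vertical axis, from 0) on each U133A array for 6 genes of complexes I, II and IV by group (horizontal axis: vehicle, then 8, 24 and 72 h of 1,25(OH)2D3). Symbols are replicates, and black marks are mean and SD of 3 arrays; NDUFS7 lies below vehicle at all times, NDUFB5 is highest at 72 h, SDHA is above vehicle at 24 and 72 h, and SDHD replicate 2 at 72 h (1487) stands above the other two arrays of its group.

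In complex III, 0 of 7 genes passed at any time, where 0.766%, 4.07% and 6.84% of all tested genes did at 8, 24 and 72 h. At an unadjusted p under 0.05 there were also 0, against 6.38%, 14.4% and 20.1% of all tested genes. The core genes were CYC1 (cytochrome c1) and UQCRC1 and UQCRC2 (the large matrix-facing core proteins). CYC1 had 4799, 4479 and 4660 at 24 h against 3606, 4285 and 3841 in vehicle, which did not overlap (log2 change 0.25, limma adjusted p = 0.364). At 72 h its arrays spread more widely, at 5371, 4752 and 3590, and the log2 change was 0.21 (adjusted p = 0.371); without 72 h replicate 3, the low array, it was 0.37 and past the threshold (adjusted p = 0.0423). UQCRC1 had 8477, 7307 and 7296 at 72 h against 6771, 7205 and 6544 in vehicle, a log2 change of 0.17 (adjusted p = 0.267). UQCRC2 had the opposite sign at 24 h, with 2067, 1973 and 2274 against 2250, 2379 and 2468 in vehicle (log2 change -0.17, adjusted p = 0.461). The complex III median was 0.02 at 8 h, -0.01 at 24 h and 0.12 at 72 h.

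In complex IV, 11 of 12 genes had a log2 change above 0 at 24 h and 9 of 12 at 72 h, with a median of 0.11 at both times, and 0 passed. Over all tested genes 46.7% and 47.6% were above 0 at these times, and 4.07% and 6.84% passed. Of genes of like signal 57.5% and 57.2% were above 0, but COX4I1 and COX6A1, among others, were brighter than that set, which ends at 7875. Of the cytosolic ribosomal proteins, 93.5% and 89.1% were above 0. In complex IV 1 gene at 24 h and 2 at 72 h had an unadjusted p under 0.05 (8.33% and 16.7% of the 12), against 14.4% and 20.1% of all tested genes. On vehicle replicate 1 the median complex IV gene was at -0.192 relative to its own mean over the 12 arrays on the log2 scale. COX6A1, the widely expressed form of subunit 6A, had signals of 11086, 12145 and 10793 in vehicle, 13776, 12097 and 12135 at 8 h, 13650, 13652 and 13333 at 24 h, and 15524, 12984 and 12813 at 72 h. The 24 and 72 h arrays were all above vehicle, with log2 changes of 0.16 at 8 h (limma adjusted p = 0.89), 0.26 at 24 h (adjusted p = 0.132) and 0.28 ± 0.0864 (SE) at 72 h (adjusted p = 0.072).

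COX4I1, the subunit through which ATP and ADP act on the complex, had 15874, 14280 and 13127 at 72 h against 12928, 14574 and 13644 in vehicle. These overlapped (log2 change 0.07), and the sign turned under quantile normalization and when its probe sets were averaged. COX5A and COX5B, matrix-side subunits, had log2 changes of 0.18 (adjusted p = 0.384) and 0.15 (adjusted p = 0.358) at 72 h. With the mean of its 4 probe sets, which includes a dim one that changed by 1.33, COX5B changed by 0.47 and passed (adjusted p = 0.0326). The heart and muscle forms were dim: COX6A2 had 132 to 247 over the 12 arrays, and COX7A1 7.0 to 13.6, under the pseudocount of 15.8 on every array.

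In complex V, 12 of 16 genes had a log2 change above 0 at 24 h and 7 of 16 at 72 h, with a median of 0.04 at 24 h and -0.005 at 72 h, and 0 passed at either time, where 4.07% and 6.84% of all tested genes did. Of genes of like signal, 57.5% and 57.2% were above 0 at these times. An unadjusted p under 0.05 was found for 2 complex V genes at 24 h and 0 at 72 h (12.5% and 0% of the 16), against 14.4% and 20.1% of all tested genes. ATP5F1A, the alpha subunit of the catalytic F1 head, had signals of 8302, 8773 and 8162 in vehicle, 9138, 9541 and 9238 at 8 h, 11015, 9203 and 9814 at 24 h, and 9538, 9487 and 8737 at 72 h. The 8 and 24 h arrays were all above vehicle, and the lowest 72 h array was within its range. The log2 change was 0.15 at 8 h (limma adjusted p = 0.883), 0.25 at 24 h (adjusted p = 0.107) and 0.14 at 72 h (adjusted p = 0.363); at 24 h it passed with array weights and without 24 h replicate 2 (adjusted p as low as 0.024).

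ATP5F1B, the beta subunit that makes ATP, had 9624, 9067 and 9783 at 72 h against 8642, 9750 and 9194 in vehicle, which overlapped (log2 change 0.05, turning to -0.02 with quantile normalization). The 5 F1 genes had medians of 0.07, 0.12 and 0.05 at 8, 24 and 72 h. The 4 genes of the peripheral stalk, which holds the head still, had medians of 0.07, 0.08 and -0.04, and their member ATP5PB had the largest absolute change of complex V at 72 h, with 5564, 7818 and 7328 against 7102, 8123 and 7523 in vehicle. The groups overlapped, and 72 h replicate 1 was the low array: the log2 change was -0.15 with it (adjusted p = 0.509) and 0.00 without it. Of the 3 c ring genes, which carry protons through the membrane, 0 had a change above 0 at 72 h. At 24 h ATP5MC1 had 2930, 2190 and 2266 against 2520, 3498 and 2964 in vehicle (log2 change -0.28, adjusted p = 0.34). ATP5ME, a small membrane subunit, had a log2 change of -0.16 at 8 h (adjusted p = 0.947). ATP5IF1, the inhibitor of ATP hydrolysis, had 1128, 1108 and 1002 at 8 h, and 1133, 924 and 1068 at 24 h, against 1178, 1150 and 1170 in vehicle. Both treated groups were below vehicle without overlap, and neither difference passed the test (limma adjusted p = 0.999 and 0.628).

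Between times, 0 of 66 members passed at 24 h against 8 h, 72 h against 24 h or 72 h against 8 h, where 0.641%, 0.153% and 2.52% of all tested genes passed (limma, Benjamini-Hochberg adjusted p). At an unadjusted p under 0.05 the shares of members were 3.03%, 10.6% and 9.09%, against 8.26%, 11.7% and 14.1% of all tested genes. The spread between arrays of a group was small for these genes. The median SD within a group was 0.117 on the log2 scale, against 0.121 for the 669 tested genes of like signal and 0.174 for all tested genes. It ran from 0.0567 for COX7A2L to 0.329 for NDUFA7. The median SE of a change at 72 h was 0.0974.

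Over all 66 members the median change was small and positive at each time, but its size, and at 8 h its sign, moved with single vehicle arrays. Their medians of 0.03, 0.06 and 0.07 at 8, 24 and 72 h stood beside 0.01, 0.02 and 0.03 for genes of like signal and -0.00, -0.02 and -0.01 for all tested genes. In genes of like signal, 54.6%, 57.5% and 57.2% of log2 changes were above 0. On vehicle replicate 1, 6 of the 66 members were above their own mean over the 12 arrays, against 50 and 21 on vehicle replicates 2 and 3. The counts were 37, 42 and 19 at 8 h, 49, 28 and 39 at 24 h, and 44, 45 and 28 at 72 h. So 1 vehicle array was low and another high, and each treated group held an array on which more members lay below their mean than above it.

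Relative to each gene's mean, the median member was at -0.12, 0.04 and -0.03 on the vehicle arrays, 0.01, 0.03 and -0.05 at 8 h, 0.08, -0.02 and 0.01 at 24 h, and 0.13, 0.04 and -0.02 at 72 h. At 72 h replicate 1, the high array, complex I was at 0.20 and complex III at 0.25, while complex V was at -0.02. The 46 cytosolic ribosomal protein genes tested were also lowest on vehicle replicate 1 (-0.24), and genes of like signal were at -0.03 there. Without vehicle replicate 1 the members' medians were -0.007, 0.006 and 0.017, with 28, 34 and 38 of 66 above 0. Without vehicle replicate 2 they were 0.073, 0.107 and 0.11, and with quantile normalization 0.005, 0.027 and 0.028, with 35, 37 and 37 of 66 above 0. For ACTB, signal at the 3' end over that at the 5' end of the transcript was 0.0748 on the log2 scale on vehicle replicate 1, against 0.0476 to 0.244 over the 12 arrays. For GAPDH it was -0.17 there, the second lowest of the 12, in a range from -0.178 to 0.0424. The part of array quality in these medians was not tested.

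**Figure D3:**
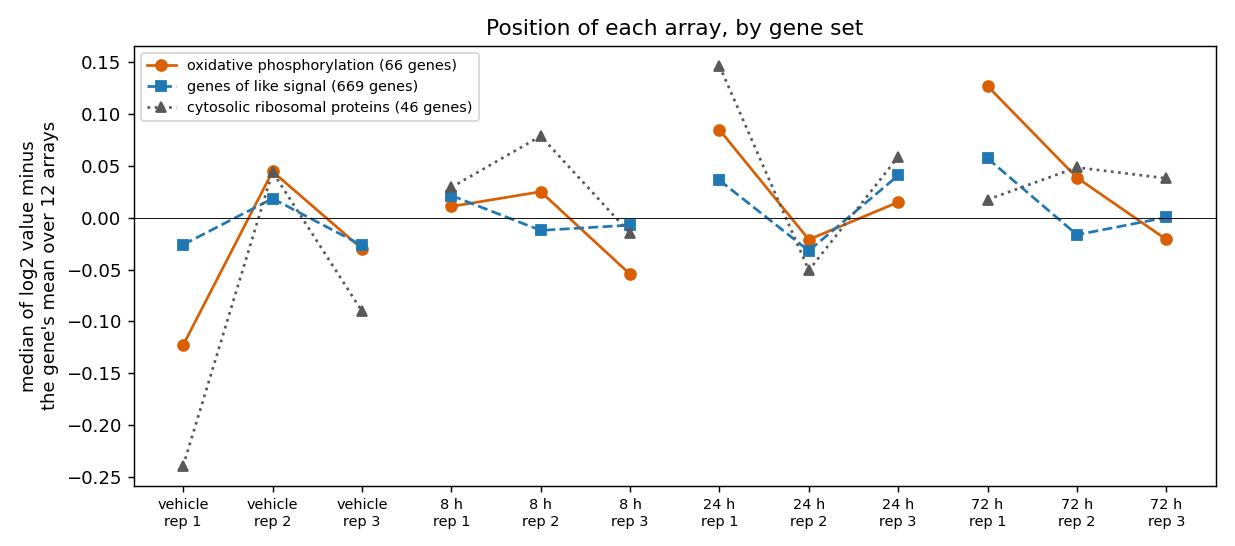
Median over genes of the log2 value minus the gene's mean over 12 arrays (vertical axis) on each U133A array (horizontal axis), for 66 oxidative phosphorylation genes, 669 genes of like signal and 46 cytosolic ribosomal protein genes. Vehicle replicate 1 is the lowest array for the oxidative phosphorylation genes (-0.12) and the ribosomal protein genes (-0.24), and 72 h replicate 1 is the highest for the oxidative phosphorylation genes (0.13).

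Some genes had probe sets that disagreed. Of the 69 genes, 21 had several probe sets, and 102 probe sets served them in all. For ATP5F1C, the gamma subunit, the dim probe set changed by -0.41 at 72 h and the bright one used here by 0.04. For ATP5MC2, a c ring gene, the dim one changed by 0.55 and the bright one by -0.07, and for COX4I1 by -0.47 and 0.07. These dim probe sets were all below the filter on low signal. Of the 16 genes with several probe sets above the filter, 5 had probe sets of both signs at 72 h, among them ATP5F1D, the delta subunit, at -0.13 for the one used and 0.22 for the other. At 8 h the probe sets of UQCRB, a complex III subunit, changed by 0.03, 0.22 and -0.20, all above the filter. With the mean of the probe sets the sign at 72 h turned for ATP5F1C (-0.056), ATP5MC2 (0.241) and COX4I1 (-0.087).

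The U95 arrays, from an earlier experiment with 1 array a time and so no test, measured 53 of the members above the filter on both array types. Their log2 ratios to vehicle were above 0 for 36 at 8 h, 39 at 24 h and 43 at 72 h, with medians of 0.08, 0.12 and 0.11, against -0.01, -0.02 and -0.04 over all 4167 genes measured on both. Of all genes 47.9%, 47.4% and 44.5% were above 0. The ratios of all times share 1 vehicle array, and genes of like signal were not compared on U95. The ratio had the sign of the U133A change for 30, 35 and 33 of the 53. NDUFS7 had signals of 1685, 1349 and 1771 at 8, 24 and 72 h against 1684 in vehicle, so it was lower at 24 h (log2 ratio -0.32) and not at the other times. SDHA had 1420, 1446 and 1558 against 1340 (log2 ratio 0.22 at 72 h). NDUFB5 had 2071, 1709 and 2218 against 2126, which was 0.06 at 72 h and -0.31 at 24 h. SDHD had 1144, 1445 and 1286 against 1262, so it was near vehicle at 72 h (log2 ratio 0.03), unlike on U133A. The ratios at 72 h ran from -0.56 for SDHC to 0.79 for UQCRQ, a small subunit of complex III.

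**Figure D4:**
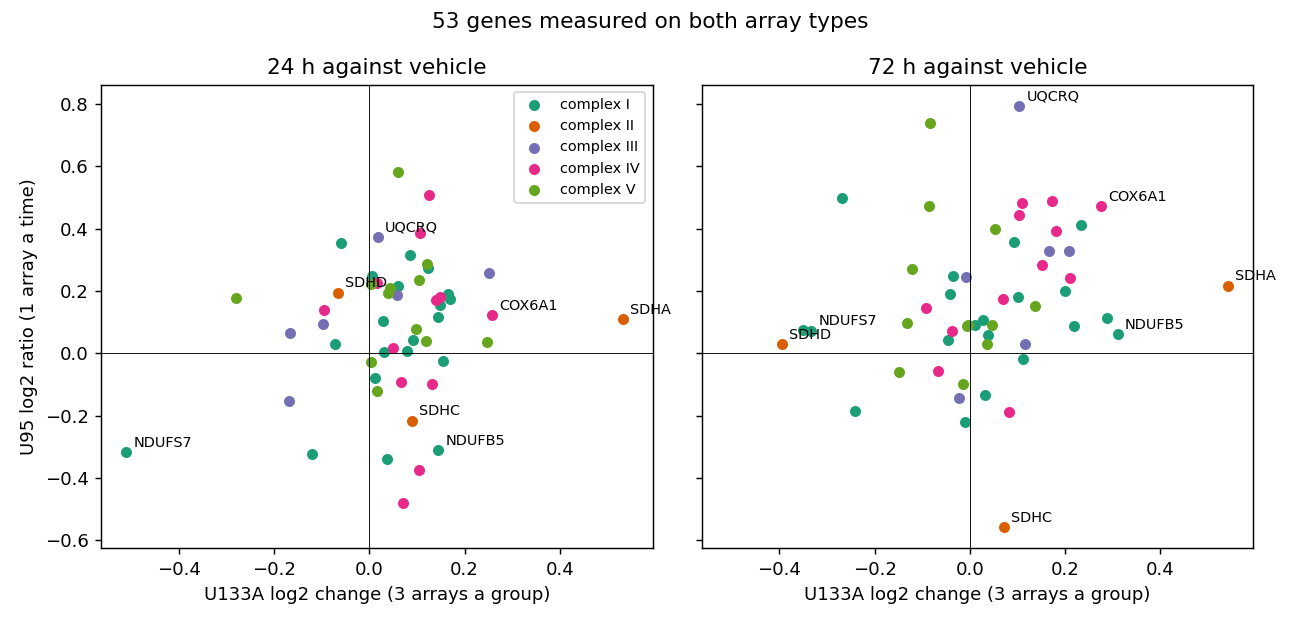
Log2 ratio to vehicle on single U95 arrays (vertical axis) against the log2 change on U133A (horizontal axis) for 53 oxidative phosphorylation genes at 24 and 72 h, coloured by complex. The signs matched for 35 genes at 24 h and 33 at 72 h; NDUFS7 lies lower left at 24 h (-0.51 and -0.32), and SDHA lies right of zero and above it at both times.

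Genes that work with the complexes were counted by list in the comparison of 72 h with vehicle (background 3.86% higher and 2.98% lower, and 20.1% in either direction at an unadjusted p under 0.05). Of 27 assembly factors 0 passed (1 higher and 2 lower at an unadjusted p under 0.05), with a median log2 change of -0.00, and the lowest p was that of LRPPRC, which stabilises mitochondrial mRNAs (-0.32, limma adjusted p = 0.102). Of 15 genes of ubiquinone synthesis, cytochrome c and other electron carriers 0 passed (1 higher), with a median of 0.01, and SQOR, which feeds electrons from sulfide into ubiquinone, had the lowest p (0.59, adjusted p = 0.196). Of 7 exchangers of ATP, ADP and phosphate 0 passed (0 at an unadjusted p under 0.05), with a median of 0.10, and VDAC2, a channel of the outer membrane, had the lowest p (0.14, adjusted p = 0.352). Of 16 regulators of mitochondrial transcription and biogenesis 0 passed (1 lower), 3 had a change above 0, and TFAM, which packages and transcribes mitochondrial DNA, had the lowest p (-0.33, adjusted p = 0.106). Of 23 protein import genes 0 passed (1 higher and 1 lower), with a median of -0.01, and TOMM70, a receptor of the outer membrane, had the lowest p (-0.21, adjusted p = 0.164). Of 48 mitochondrial ribosomal proteins 0 passed (1 higher and 3 lower), with a median of -0.03, and MRPS31 had the lowest p (-0.42, adjusted p = 0.0602).

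The lists that held genes past the test were those of the tricarboxylic acid cycle with pyruvate dehydrogenase and of glycolysis. In the tricarboxylic acid cycle and pyruvate dehydrogenase list, 1 of 22 passed at 24 and at 72 h (background 2.45% and 3.86% higher): IDH2, the mitochondrial NADP-dependent isocitrate dehydrogenase. Its signal was 928 ± 128 at 24 h and 1210 ± 237 at 72 h, against 470 ± 41.5 in vehicle (SD, n = 3 each). The log2 change was 0.95 at 24 h (limma adjusted p = 0.00095) and 1.32 at 72 h (adjusted p = 2.82e-05). At an unadjusted p under 0.05 the list had 1 higher and 3 lower genes at 72 h (18.2%, against 20.1% of all tested genes). The median of the 22 was -0.01, and SDHA, which is also a cycle enzyme, was counted with complex II. In glycolysis, 2 of 18 passed at 72 h, PFKP, a phosphofructokinase, and TPI1, triosephosphate isomerase. PFKP had 3172 ± 262 at 72 h against 1563 ± 137 in vehicle (log2 change 1.01, adjusted p = 2.01e-05) and also passed at 24 h (0.66, adjusted p = 0.00169). TPI1 had 13040 ± 1001 at 72 h against 10295 ± 875 in vehicle (0.34, adjusted p = 0.0231). All 9 glycolytic genes with an unadjusted p under 0.05 at 72 h were higher (50.0% of the 18, against 26.2% of genes of like signal and 20.1% of all tested genes). Of the 18 glycolytic genes 15 were above 0 at 72 h, against 57.2% of genes of like signal, with a median of 0.24, beside the members' 0.07. The like-signal set was matched to the members and not to this list, and the position of the glycolytic genes on vehicle replicate 1 was not examined. Of 46 cytosolic ribosomal proteins 0 passed (10 higher at an unadjusted p under 0.05), 41 were above 0 and the median was 0.13. The ribosomal list, like the members, was lowest on vehicle replicate 1.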

How the data were processed

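Gene expression was measured on Affymetrix U133A (12 arrays) and U95 (4 arrays) in OVCAR3 cells. The deposited values are MAS5 signal intensity, per the submitters' processing notes (version not given in the sources used here), on a linear scale. The 4 groups come from the sample titles, and p-values measure the spread between 3 independent experiments. From the deposited intensity, log2(signal + 15.8) was computed, 15.8 being the 10th percentile of all values, so fold changes of dim genes are understated. Of 22283 U133A probe sets, those annotated to several genes (1043) or to none were left out, the probe set with the highest mean log2 value stood for a gene (for all 69 members also that with the highest mean signal), and genes under the 40th percentile were not tested. limma 3.58.1 (R 4.3.3; version 1.17.8 of data.table, statmod 1.5.0) was fitted over 12 arrays with 1 term a group, eBayes with a trend, and Benjamini-Hochberg adjustment over 7178 genes at 0.05; it was checked on simulated data.

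Named are members past the threshold, up to 3 with the lowest p in each direction and comparison, the largest 72 h change of each complex, catalytic or core subunits, muscle isoforms, members whose probe sets disagree, and up to 3 genes of each other list; other names stand in counts or were chosen after values were seen (SDHC and UQCRQ on U95, ATP5IF1, NDUFA1, ATP5F1D and UQCRB). The members and lists were chosen with earlier results of these data known. Alternatives were the pseudocount, the filter, quantile normalization, median centring, a replicate block, array weights, the mean of probe sets, no trend, and leaving out each array. Same-numbered deviations correlated above 0.1 in all 3 pairs for 24 h against 8 h (0.108 to 0.157) and 72 h against 24 h (0.103 to 0.187). For 72 h against 8 h the correlation was 0.0519 in replicate 3. All same-numbered correlations were positive, from 0.0519 to 0.263, and the cut at 0.1 was a choice. These values neither establish nor exclude a pairing by replicate number, and the tests reported used no block. Precision is limited by the number of arrays.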

Additional observations from a re-analysis of the deposited data

How the results depend on the processing

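The results that answer a comparison, recomputed under 22 alternatives, gave 242 values, of which 207 kept their side or stayed within the spread, and 35 counts moved. The count of members past the threshold at 24 h, 1 as reported, was 2 with 4 times the pseudocount, a filter at the 60th percentile, quantile normalization, median centring or a replicate block, and 3 with array weights. At 72 h, 2 as reported, it was 1 with no filter, 1 with array weights, 0 with no trend and 5 with a replicate block. The mean of the treated groups and the F test, 1 each as reported, gave 2 with array weights, and the F test gave 2 with the 60th percentile filter. With 1 array left out, the count ran from 1 to 3 at 24 h, 0 to 3 at 72 h, 0 to 2 for the mean of the treated groups and 0 to 2 for the F test. At 8 h and between times it was 0 under every alternative. The cause was not tested.

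The members' median ran from -0.007 to 0.073 at 8 h, 0.006 to 0.107 at 24 h and 0.017 to 0.11 at 72 h over all alternatives, the lowest without vehicle replicate 1 and the highest without vehicle replicate 2. Of the named changes at 72 h, these turned sign: ATP5F1B to -0.02 and COX4I1 to -0.048 with quantile normalization, and ATP5F1C to -0.056, ATP5MC2 to 0.241 and COX4I1 to -0.087 with the mean of probe sets. With 1 array left out, the ranges that crossed 0 were -0.199 to 0.028 for ATP5MC2, -0.245 to 0 for ATP5PB, -0.001 to 0.136 for COX4I1, -0.111 to 0.295 for COX6A2 and -0.166 to 0.038 for NDUFV1. None of these had passed the test. Without 72 h replicate 2, the members past the threshold were NDUFA1, NDUFS1 and SDHD in place of NDUFB5 and SDHA.

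The replicate block called COX6A1, NDUFB5, NDUFS1, SDHA and SDHD at 72 h, and NDUFS7 and SDHA at 24 h. In the comparisons with vehicle same-numbered deviations correlated at 0.0578 to 0.216, all positive but not above 0.1 in every pair. These values do not settle whether the replicate numbers mark a pairing, so neither fit can be preferred on them. Precision rests on 3 arrays a group: the median SE of a member's change at 72 h was 0.0974.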
